A study of Arabidopsis thaliana with 4 samples.

Results

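The genes described here are the 61 genes whose signal was at least 2-fold higher on the abscisic acid (ABA) array than on the mock array in both genotypes, among 7322 genes measured in rosette leaves of Arabidopsis thaliana. They were chosen from deposited signals of Affymetrix ATH1 arrays. A probe set had to be paired with a single gene and to have a mean signal of at least 29.0, and the brightest probe set stood for its gene. Signals below 13.3 were raised to that floor, and the log2 difference of ABA minus mock had to be 1 or more in each line. In all, 71 genes met this, which is 0.97 percent of the genes measured. The rule then left out 10 of them by name, COR15A, LTI30, XTH18, EXPA16, PUB19, BGLU40, ALDH7B4, WES1, AT3G02480 and AT1G73480, and 61 remained. The ABA differences chose the genes, so they are given as a description with no test.

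The 4 groups held 1 array each. Plants of the Col-0 background carried either the empty pCP60 vector or, in line 52, an ERD15 overexpression construct, and all seedlings had been selected on 50 µg/ml kanamycin. Soil-grown plants of 3 weeks were sprayed with 100 µM ABA or with the mock solution, both holding 0.07% ethanol, and leaves were collected after 90 min. Leaves of 3 plants were pooled for 3 of the samples, while the label of the vector mock sample does not say so. A single overexpressor line was used, so effects of the construct and of that line cannot be told apart. A characteristic of the overexpressor samples speaks of a knock-out, against their titles and source names, and the titles were followed. ERD15 has 0 paired probe sets in the annotation and was not analysed here, so the genotype labels are taken as given. No difference between arrays had a replicate check, and none was tested.

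ABA is the hormone that plants accumulate when water is short. Its receptors hold back a group of protein phosphatases, which frees kinases that phosphorylate transcription factors of the bZIP type and ion channels of guard cells. In leaves it is known for closing stomata and for switching on genes for protective proteins, solutes, lipid barriers and its own negative regulators. ERD15 stands for early responsive to dehydration, a name that recalls how the gene was found. Most of the 61 genes are known by locus tag only, 54 of them, and 7 have a symbol. Protein families named here are background knowledge of these loci. No product names were in the tables used, and no promoter or protein sequences were analysed.

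All 4 arrays had similar median signals, from 39.9 to 45.8. The 25S ribosomal RNA control was far apart, with signals of 1833 under mock and 2109 under ABA in vector plants and of 262 and 833 in the overexpressor. The added bioB, bioC, bioD and cre spike-in controls were also apart. From vector mock and ABA to overexpressor mock and ABA, r2-P1-cre-3 read 5244, 3544, 2559 and 4247, and r2-Ec-bioD-5 read 944, 627, 344 and 628. Both were lowest on overexpressor mock, the baseline of each overexpressor ABA difference. So were all other probe sets of these spike-ins except AFFX-BioB-3 and r2-Ec-bioB-M, which were lowest on vector ABA. Of the leaf markers, 3 of 11 were measured. In the same order of arrays, RCA had log2 signals of 13.14, 12.75, 12.00 and 12.78, and LHCB4.2 of 12.90, 12.56, 11.93 and 12.50. RCA and LHCB4.2 were lowest on overexpressor mock, and PORB on vector ABA. Of the root markers none of 5 was measured, and of the guard cell and vasculature markers 1 of 6 and 1 of 5 were, FMA and SWEET11. A marker counts as measured where a probe set paired with it alone passed the filter. An unmeasured marker therefore does not show that its tissue was absent. No measured marker of these lists was 2-fold higher with ABA in either line, and the leaf marker PORB was more than 2-fold lower with ABA in vector plants, with a difference of -1.43 against 0.12 in the overexpressor. The part of the 25S and spike-in differences in the results was not tested. In bulk leaf RNA, fewer cells of a type and less RNA per cell cannot be told apart.

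Over the 61 genes the median log2 difference of ABA minus mock was 1.56 in the vector line and 1.46 in the overexpressor, against -0.09 and 0.06 over all 7322 genes. Alone, the vector line had 355 genes (4.85 percent) at least 2-fold higher with ABA and the overexpressor 367 (5.01 percent). Differences among the 61 ran from 1.01 to 3.17 in the vector line and from 1.03 to 3.54 in the overexpressor. They reached 2 in both lines at 5 genes and 1.5 at 16 genes. Both ABA signals lay above both mock signals at 60 of the 61, against 15.4 percent of all genes, which largely follows from the choice. The exception was AT4G29020, whose overexpressor ABA signal was lower than its vector mock signal. A gap of at least 2-fold between the lower ABA signal and the higher mock signal was present at 39 of the 61, against 0.656 percent of all genes. Such a gap makes both ABA differences 1 or more, so only genes that met the threshold can have it. Signals below the floor occurred at 15 of the 61, against 2.25 percent of all genes, and among the 61 on mock arrays only, so their folds are lower limits. The choice itself brings this about, since an ABA signal at the floor cannot lie above mock. A gene below the floor on both mock arrays passes the filter only through its ABA signals. By mean signal, split into 4 equal classes from dim to bright, 18, 12, 19 and 22 of the 71 genes lay in each class.

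**Figure D1:**
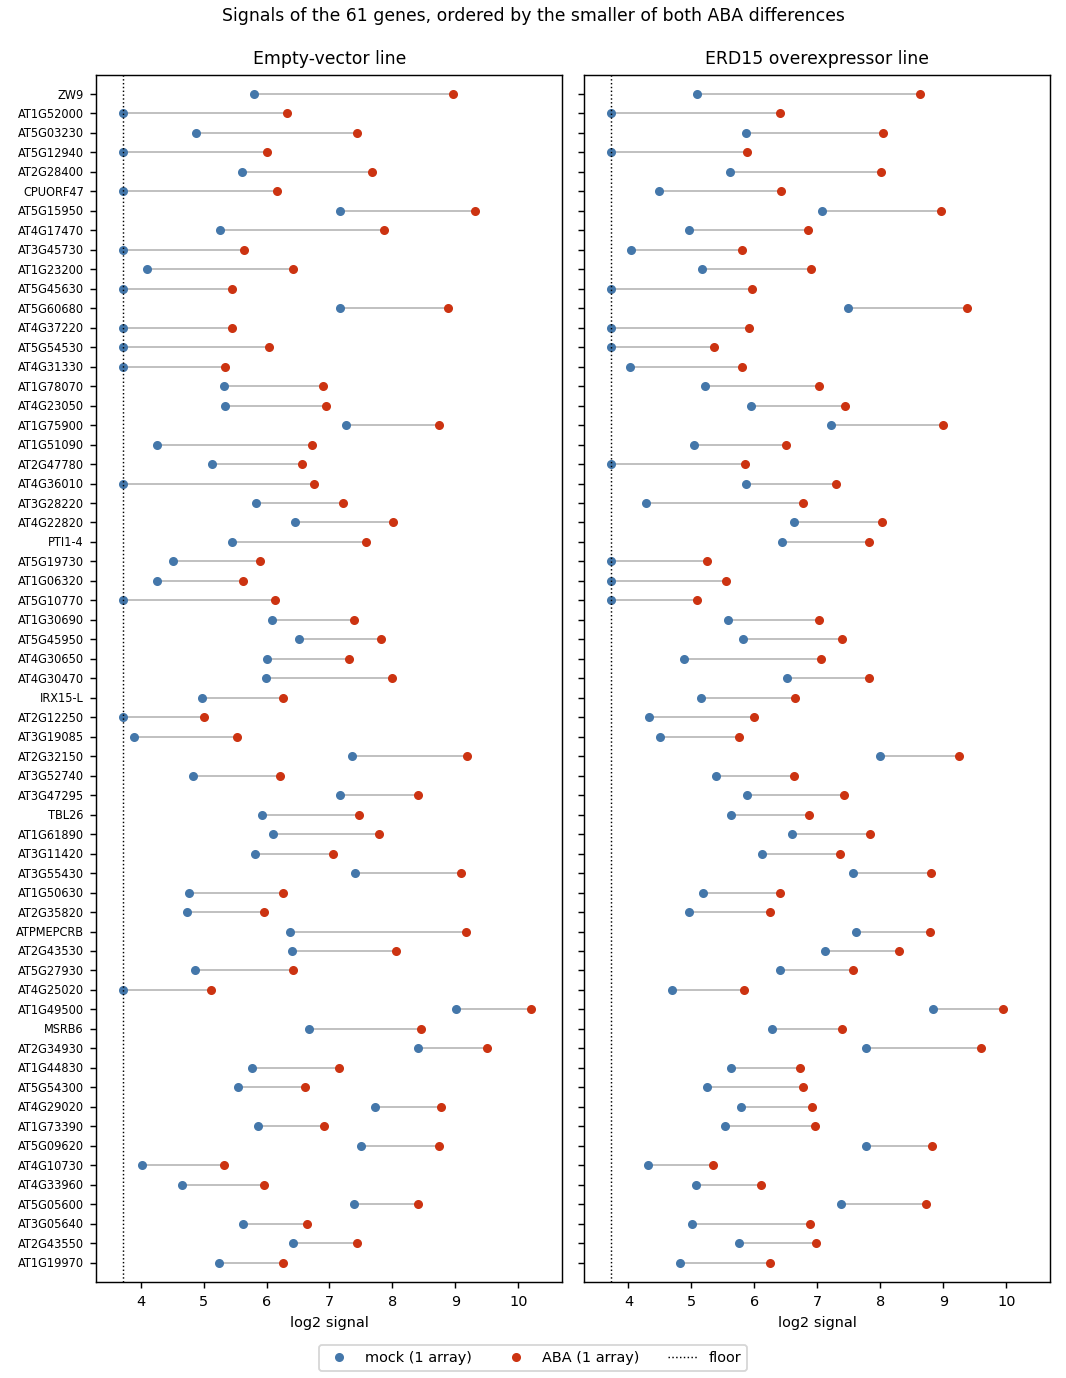
Log2 signal (x axis) of each of the 61 genes on the mock array (blue) and the ABA array (red) of the vector line (left) and the ERD15 overexpressor line (right). Each point is 1 array, the dotted line is the floor, and genes run from the largest smaller difference (ZW9) to AT1G19970, with 12 mock points at the floor on the left and 9 on the right.

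Genes of the plant-specific DUF584 family made up 4 of the 61, and all 4 were among the 12 genes with the largest smaller difference. The family is named for a domain of unknown function and is also called S40 after a senescence-associated gene of barley. AT5G03230 had signals of 29.3 under mock and 174 under ABA in vector plants, and 58.3 under mock and 263 under ABA in the overexpressor. Both ABA signals were above both mock signals, 5.92- and 4.5-fold higher than mock in the vector line and the overexpressor, the order used for all pairs of folds here. For AT2G28400 the signals were 48.6 under mock and 204 under ABA in vector plants, and 48.7 under mock and 257 under ABA in the overexpressor, which is 4.2- and 5.27-fold higher. Its mock signals were almost equal between the genotypes. AT5G60680 gave 144 under mock and 473 under ABA in vector plants, and 180.0 under mock and 661 under ABA in the overexpressor, 3.29- and 3.67-fold higher. AT5G45630 was below the floor under mock and 43.7 under ABA in vector plants, and below the floor under mock and 62.2 under ABA in the overexpressor, so that its folds of at least 3.3 and at least 4.69 are limits. Of the 14 loci listed for this family after the 61 genes were known, 8 were measured. The other 4, AT1G11700, AT2G34340, AT3G15040 and AT3G45210, had differences of -0.30 to 0.38 in the vector line and of -0.37 to 1.16 in the overexpressor. The family thus held 4 genes well above and 4 genes below the 2-fold line in vector plants.

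ZW9 and AT3G28220 encode TRAF-like proteins, which share a domain that binds other proteins. ZW9 stood first among the 61 by its smaller difference, with signals of 55.5 under mock and 499.5 under ABA in vector plants, and 34.1 under mock and 396 under ABA in the overexpressor. Its ABA signals were 8.99- and 11.6-fold above mock, and the groups of arrays were far apart, with the lower ABA signal 2.83 on the log2 scale above the higher mock signal. AT3G28220 had signals of 56.8 under mock and 149 under ABA in vector plants, and 19.5 under mock and 109 under ABA in the overexpressor. Its folds were 2.63 and 5.6, and among the 46 genes with no signal below the floor its difference was most in favour of the overexpressor, by 1.09 on the log2 scale. That came with a mock signal that was lowest on the overexpressor array.

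The group of membrane, lipid and water stress proteins held 6 of the 61 genes, and the ABA difference was the larger in the overexpressor at all 6, but at 3 with each array centred on its median and at 5 with a floor at 1 or at the 40th percentile. Over all genes it was the larger in the overexpressor at 57.8 percent, and at 36.3 percent with centred arrays. Its median differences were 1.37 in the vector line and 1.95 in the overexpressor, and its median genotype difference under mock was -0.60. AT4G37220 belongs to the WCOR413 family of cold acclimation membrane proteins, and its signals were below the floor under mock and 43.6 under ABA in vector plants, and below the floor under mock and 60.1 under ABA in the overexpressor, folds of at least 3.29 and at least 4.53. AT4G30650 encodes a small hydrophobic protein of the RCI2 type, known from cold and salt responses, and read 64.6 under mock and 159 under ABA in vector plants, and 29.6 under mock and 133 under ABA in the overexpressor. It was 2.46- and 4.49-fold higher with ABA, with overexpressor mock as the lowest array. AT2G47780, of the rubber elongation factor family that coats lipid droplets in leaves, was at 35.2 under mock and 94.8 under ABA in vector plants, and below the floor under mock and 57.7 under ABA in the overexpressor, or 2.69- and at least 4.35-fold higher. The GDSL lipase genes AT1G75900 and AT5G45950 encode enzymes that cleave or form lipid esters. AT1G75900 read 153 under mock and 429 under ABA in vector plants, and 148 under mock and 507 under ABA in the overexpressor (2.79- and 3.43-fold). AT5G45950 read 91.4 under mock and 225 under ABA in vector plants, and 56.5 under mock and 168 under ABA in the overexpressor (2.46- and 2.97-fold). The Sec14-like gene AT1G30690, whose family binds membrane phospholipids, was 2.47- and 2.73-fold higher. At 5 of the 6, or 4 with centred arrays, the mock signal was lower in the overexpressor than in vector plants, as it was at 56.2 percent of all genes, or 43.9 percent with centred arrays, with a log2 difference of at most -1.41 at AT2G47780, and at AT4G37220 both mock signals were below the floor.

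Signalling and transcription proteins accounted for 7 genes, with median differences of 1.56 and 1.38. A pair of them encode type 2C protein phosphatases outside the clade that acts with the ABA receptors. AT5G27930 had signals of 29.2 under mock and 86.0 under ABA in vector plants, and 85.0 under mock and 189 under ABA in the overexpressor. It was 2.94- and 2.22-fold higher with ABA and higher in the overexpressor under both sprays, so that overexpressor mock reached the level of vector ABA. AT3G05640 read 49.6 under mock and 99.9 under ABA in vector plants, and 32.2 under mock and 117 under ABA in the overexpressor, 2.01- and 3.65-fold higher, and its vector difference of 1.01 was close to the threshold. A further gene of the same small clade, AT3G16800, had differences of -0.56 and -0.05. Kinases were represented by AT4G23050, a Raf-like kinase with a PAS domain, at 40.6 under mock and 123 under ABA in vector plants, and 61.6 under mock and 174 under ABA in the overexpressor (3.04- and 2.83-fold). PTI1-4, a kinase named for its relation to the tomato protein that interacts with the resistance kinase Pto, was at 43.9 under mock and 192 under ABA in vector plants, and 86.6 under mock and 226 under ABA in the overexpressor (4.37- and 2.61-fold). The kinase gene AT4G10730 had low signals, 16.3 under mock and 40.2 under ABA in vector plants, and 19.9 under mock and 40.7 under ABA in the overexpressor (2.47- and 2.05-fold). All of their ABA signals were above both mock signals. AT4G22820, a zinc finger protein of the A20/AN1 type found in stress-associated proteins, was 2.97- and 2.63-fold higher, and AT1G44830, a transcription factor of the ERF and DREB family, 2.59- and 2.13-fold higher.

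Cell wall and carbohydrate genes numbered 6. Pectin methylesterases remove methyl groups from pectin and so alter how stiff the wall gel is. AT1G23200 of this family had signals of 17.1 under mock and 86.0 under ABA in vector plants, and 35.9 under mock and 119 under ABA in the overexpressor, 5.03- and 3.32-fold higher with ABA. ATPMEPCRB, also called pectin methylesterase 41, read 82.9 under mock and 576 under ABA in vector plants, and 195 under mock and 444 under ABA in the overexpressor. Its folds of 6.95 and 2.27 were the most unequal in favour of the vector line among the 46 genes with no signal below the floor, a difference of -1.61 on the log2 scale, with vector mock as the lowest array. AT5G19730, which encodes a pectin methylesterase-like protein, was at 22.9 under mock and 59.4 under ABA in vector plants, and below the floor under mock and 38.1 under ABA in the overexpressor (2.6- and at least 2.88-fold). TBL26 belongs to the family that acetylates wall polysaccharides, and was 2.92- and 2.36-fold higher. Of the 12 TBL genes measured it was the one higher by 2-fold in each line, while TBL45 was lower by log2 differences of -2.75 and -2.95, and the family medians were 0.05 and 0.21. IRX15-L, which acts in xylan formation, was 2.45- and 2.84-fold higher, and AT3G55430, a glycosyl hydrolase of the family that includes callose-degrading enzymes, 3.24- and 2.34-fold higher.

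Metabolism and transport was the largest of the stated groups, with 9 genes, and the ABA difference was the larger in the vector line at 8 of them, or at 9 with centred arrays (medians 2.01 and 1.35). Over all genes that share was 42.2 percent, or 63.7 percent with centred arrays, and over the 61 it was 52.5 percent, or 80.3 percent. AT5G15950 encodes S-adenosylmethionine decarboxylase, which supplies the aminopropyl groups of polyamines, and had signals of 144 under mock and 634 under ABA in vector plants, and 135 under mock and 499 under ABA in the overexpressor. Its folds were 4.39 and 3.7, whereas its relatives SAMDC and AT3G25570 had differences of -0.30 and 0.11 in the vector line and of 0.06 and -0.15 in the overexpressor. AT4G17470, an alpha/beta hydrolase gene, read 38.2 under mock and 232 under ABA in vector plants, and 31.2 under mock and 115 under ABA in the overexpressor (6.07- and 3.68-fold). AT1G51090, with a heavy-metal-associated domain, read 19.1 under mock and 106 under ABA in vector plants, and 33.0 under mock and 90.6 under ABA in the overexpressor (5.53- and 2.75-fold). The aspartyl protease gene AT5G10770 was below the floor under mock and 70.2 under ABA in vector plants, and below the floor under mock and 34.0 under ABA in the overexpressor, folds of at least 5.3 and at least 2.56. In AT4G17470, AT5G10770 and MSRB6 the vector ABA signal was more than 2-fold above the overexpressor ABA signal. MSRB6, which repairs oxidised methionine, was 3.43- and 2.16-fold higher. Among its measured relatives MSRB3 had differences of 0.11 and 0.36, MSRB5 of 0.65 and -1.08, and MSRB9 of 2.02 and 0.58. The MATE transporter gene AT1G61890 was 3.19- and 2.36-fold higher, the haloacid dehalogenase-like hydrolase gene AT2G32150 3.53- and 2.38-fold, the NAD(P)-binding reductase gene AT4G30470 4.03- and 2.45-fold and the 2-oxoglutarate-dependent oxygenase gene AT5G05600 2.02- and 2.55-fold.

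Proteins of types often linked to defence made up 6 genes. AT1G52000 encodes a jacalin-like lectin, a sugar-binding protein, and was below the floor under mock and 80.1 under ABA in vector plants, and below the floor under mock and 85.0 under ABA in the overexpressor. It was thus at least 6.04- and at least 6.42-fold higher, with both ABA signals close together. AT5G12940, with leucine-rich repeats, was below the floor under mock and 64.4 under ABA in vector plants, and below the floor under mock and 58.8 under ABA in the overexpressor, or at least 4.86- and at least 4.44-fold higher. A further leucine-rich repeat gene, AT2G34930, read 339 under mock and 724 under ABA in vector plants, and 219 under mock and 779 under ABA in the overexpressor (2.14- and 3.56-fold). AT4G36010 encodes a thaumatin-like protein of the pathogenesis-related kind, and was below the floor under mock and 107 under ABA in vector plants, and 58.6 under mock and 158 under ABA in the overexpressor. Its folds of at least 8.1 and 2.69 were unequal, and its mock signal was below the floor in the vector line alone. The defensin-like genes AT2G43530 and AT2G43550 encode small cysteine-rich peptides and lie on chromosome 2 with 2 genes between them. AT2G43530 read 84.8 under mock and 266 under ABA in vector plants, and 139 under mock and 314 under ABA in the overexpressor (3.13- and 2.25-fold). AT2G43550 read 86.1 under mock and 173 under ABA in vector plants, and 54.1 under mock and 126 under ABA in the overexpressor (2.01- and 2.32-fold). AT2G43535, a gene of the same type between them, had smaller differences of 0.81 and 0.48.

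For the remaining 21 genes no family is stated, and their differences ran from 1.01 to 2.43 in the vector line and from 1.03 to 1.94 in the overexpressor. CPUORF47, a gene named for a conserved peptide in an upstream open reading frame, was below the floor under mock and 71.5 under ABA in vector plants, and 22.4 under mock and 85.6 under ABA in the overexpressor (at least 5.39- and 3.82-fold). AT3G45730 read below the floor under mock and 49.7 under ABA in vector plants, and 16.4 under mock and 55.8 under ABA in the overexpressor (at least 3.75- and 3.41-fold). AT5G54530 was below the floor under mock and 65.6 under ABA in vector plants, and below the floor under mock and 41.0 under ABA in the overexpressor (at least 4.95- and at least 3.09-fold). In these 3 genes vector mock was below the floor and both ABA arrays were above it. AT4G31330 read below the floor under mock and 40.7 under ABA in vector plants, and 16.2 under mock and 56.0 under ABA in the overexpressor (at least 3.07- and 3.46-fold). AT1G06320 read 19.1 under mock and 49.2 under ABA in vector plants, and below the floor under mock and 47.0 under ABA in the overexpressor (2.57- and at least 3.55-fold). AT4G25020 read below the floor under mock and 34.7 under ABA in vector plants, and 25.8 under mock and 56.8 under ABA in the overexpressor (at least 2.62- and 2.2-fold). AT2G12250, the 1 pseudogene among the 61 and the 1 gene read by a probe set marked as able to bind related transcripts, was below the floor under mock and 32.2 under ABA in vector plants, and 20.1 under mock and 63.9 under ABA in the overexpressor (at least 2.43- and 3.18-fold), so its signal may include other loci. AT1G78070 read 40.1 under mock and 119 under ABA in vector plants, and 37.2 under mock and 129.6 under ABA in the overexpressor (2.98- and 3.48-fold), with nearly equal mock signals and nearly equal ABA signals in both lines.

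The others of this set had no signal below the floor. AT1G49500 read 515 under mock and 1178 under ABA in vector plants, and 455 under mock and 983 under ABA in the overexpressor, 2.29- and 2.16-fold higher. AT3G11420 had the most even differences of the 46 genes with no signal below the floor, 1.24 and 1.24. AT3G19085 was 3.11- and 2.38-fold higher, AT3G52740 2.59- and 2.37-fold, AT3G47295 2.37- and 2.9-fold and AT1G50630 2.8- and 2.33-fold. AT2G35820 was 2.33- and 2.45-fold higher, AT5G54300 2.11- and 2.9-fold, AT1G73390 2.07- and 2.67-fold and AT5G09620 2.37- and 2.07-fold. AT4G33960 was 2.47- and 2.04-fold higher and AT1G19970 2.01- and 2.67-fold. Just inside the threshold, the smaller difference was 1.007 at AT1G19970, 1.008 at AT2G43550 and 1.009 at AT3G05640. Just outside it were AT4G02550 with 0.996, AT3G20300 with 0.991 and AT4G02490 with 0.988.

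**Figure D2:**
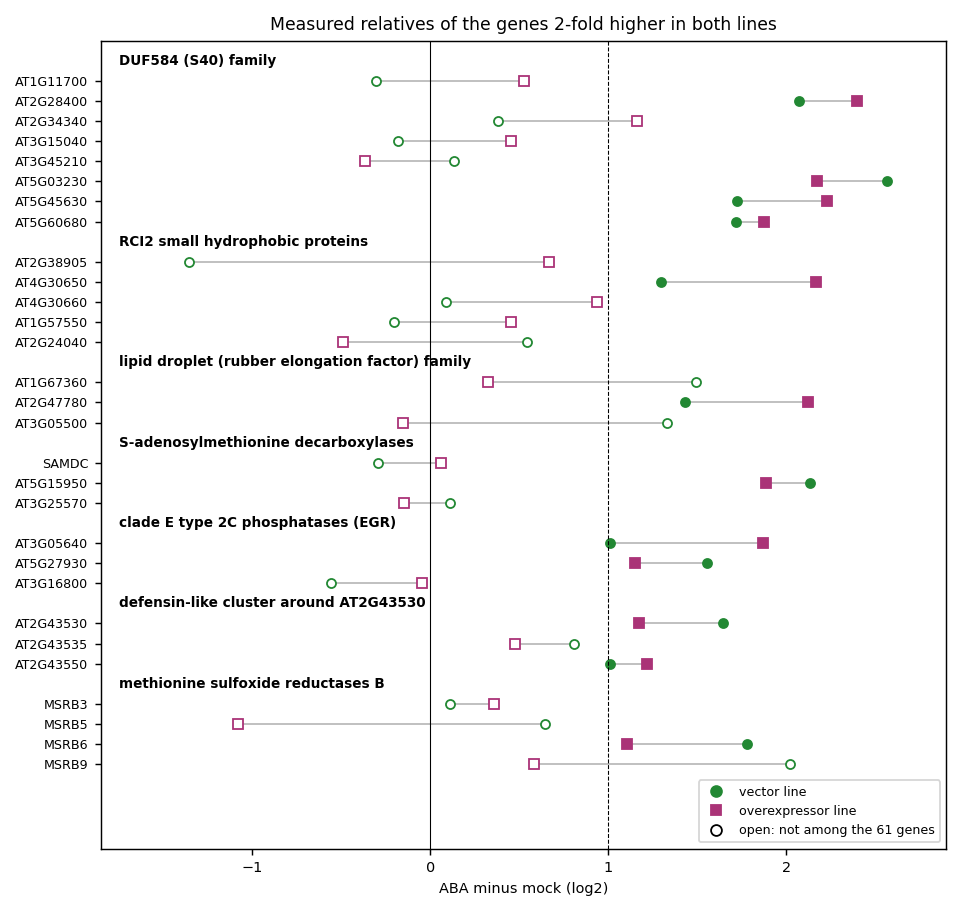
Log2 difference of ABA minus mock (x axis) in the vector line (circles) and the overexpressor line (squares) for measured relatives of the 61 genes in 7 families, 1 array per group. Filled symbols are among the 61 genes and open symbols are not, and the dashed line marks the 2-fold threshold that all filled symbols pass by choice. AT5G15950 lies near 2 in both lines and its open relatives near 0.

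Some relatives passed 2-fold in a single genotype. In the lipid droplet family all 3 genes were measured, and all 3 were at least 2-fold higher with ABA in the vector line, with differences of 1.49 at AT1G67360, 1.43 at AT2G47780 and 1.33 at AT3G05500. In the overexpressor AT2G47780 had at least 2.12, whereas AT1G67360 and AT3G05500 had 0.32 and -0.16. The mock signals of AT1G67360 and AT3G05500 were higher in the overexpressor by 1.12 and 1.58 on the log2 scale, and that of AT2G47780 differed by -1.41 or less. Of 5 measured genes of the RCI2 type, AT4G30650 was higher in both lines, and AT4G30660, its neighbour, had 0.09 and 0.94. Of the WCOR413 family AT4G37220 was the 1 gene measured.

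**Figure D3:**
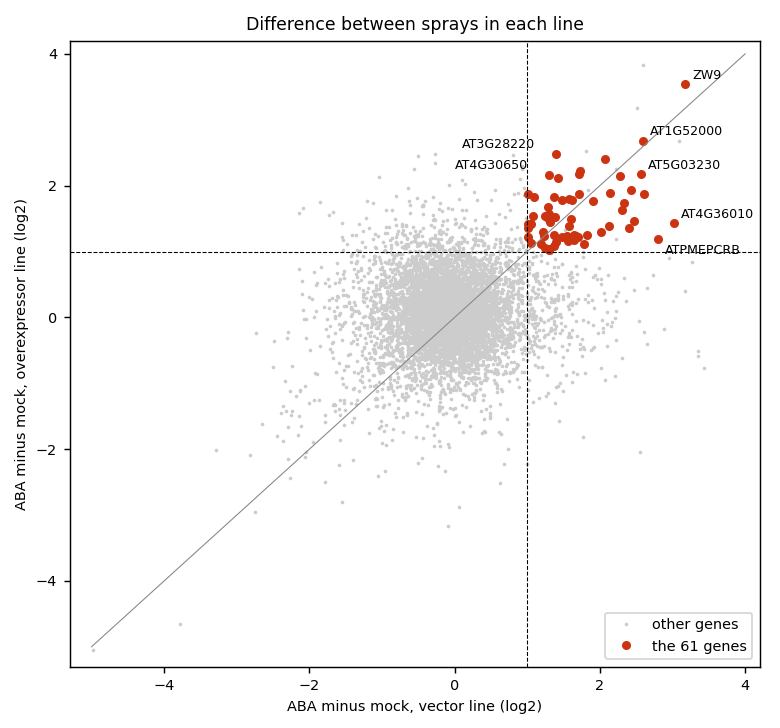
Log2 difference of ABA minus mock in the vector line (x axis) against the overexpressor line (y axis) for 7322 genes (grey) and the 61 genes (red), 1 array per group. Dashed lines mark the 2-fold threshold that chose the genes and the solid line marks equal differences, with ZW9 highest on both axes among the 61 and AT4G36010 and ATPMEPCRB far to the side of the vector line.

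Neither line had the larger difference throughout. The ABA difference was larger in the vector line at 32 of the 61 genes and larger in the overexpressor at 29, and the vector difference was the larger at 42.2 percent of all genes. The median difference of the ABA effect, overexpressor minus vector, was -0.10 over the 61 and 0.14 over all genes, and with a floor at the 40th percentile the median over the 61 was 0.019. With each array centred on its median, the vector line had the larger difference at 49 of the 61 and at 63.7 percent of all genes, and the median over all genes moved by 0.18 in the vector line and by -0.19 in the overexpressor. Both differences lay within 0.25 of each other at 19 genes. They were more than 1 apart at 5 genes with the floor in place, where mock signals below it give lower limits, and at 9 with a floor at 1, which adds AT1G52000, CPUORF47, AT1G06320 and AT5G19730. Of the 5, AT4G36010, ATPMEPCRB, AT5G10770 and AT1G51090 had the larger difference in the vector line, where 6.76 percent of all genes had one larger by 1 or more, and AT3G28220 had it in the overexpressor, where 11.9 percent did. These sizes are bounded by the choice of the genes.

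The rule did not use the difference between the genotypes averaged over the sprays. The differences under each spray, given next, share their signals with the ABA differences that chose the genes. They are therefore not independent of the choice and are a description. The median of overexpressor minus vector was 0.00 under mock and 0.08 under ABA, against -0.09 and 0.08 over all genes. The 0.00 includes 6 genes below the floor on both mock arrays, whose difference is 0 by construction, and the median under mock was 0.087 over the 46 genes with no signal below the floor and 0.19 over the 61 with a floor at 1. The value under ABA was -0.12 with arrays centred on the median. Both genotype differences were under 0.5 in size at 26 of the 61, against 46.7 percent of all genes. Under mock, 4 of the 61 were at least 2-fold higher in the overexpressor (4.9 percent of all genes) and 5 at least 2-fold lower (5.42 percent). The 4 higher genes were AT4G36010, at least 4.42-fold, AT5G27930, ATPMEPCRB and AT1G23200. The 5 lower genes were AT4G29020, AT3G28220, AT2G47780, AT3G47295 and AT4G30650, with log2 differences of -1.93, -1.54, -1.41, -1.28 and -1.13, where that of AT2G47780 is at most that value. Under ABA, 1 gene was at least 2-fold higher (3.93 percent of all genes) and 4 were lower (2.13 percent), namely AT4G29020, MSRB6, AT5G10770 and AT4G17470 at -1.86, -1.06, -1.05 and -1.01.

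Genotype differences of 2-fold or more, alike in sign between the sprays, occurred at 2 of the 61, AT5G27930 higher (0.314 percent of all genes) and AT4G29020 lower (0.382 percent). AT4G29020 had signals of 210.2 under mock and 436 under ABA in vector plants, and 55.2 under mock and 120.2 under ABA in the overexpressor. Its ABA folds of 2.08 and 2.18 were alike, while both overexpressor signals lay below both vector signals. AT5G27930 was higher in the overexpressor by 1.54 under mock and 1.14 under ABA on the log2 scale. Under each of the 9 alternative settings the count stayed at 2. The settings of filter and probe set choice could not change the values of these genes. Neither could the other floors, since all signals of both genes lay above them, and leaving out the scaling hardly changed the values. With 1 array per group these values have no replicate check.

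**Figure D4:**
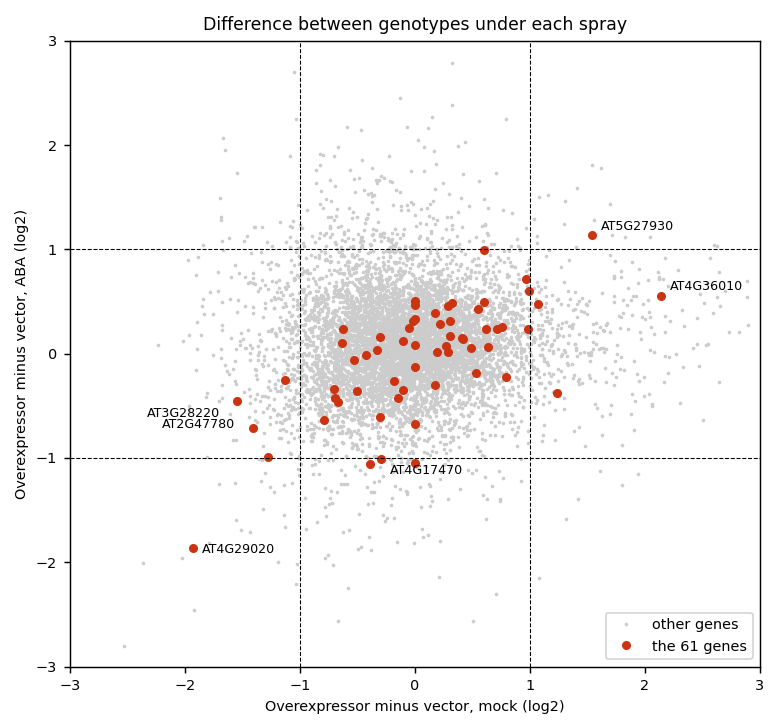
Log2 difference of overexpressor minus vector under mock (x axis) and under ABA (y axis) for all genes (grey) and the 61 genes (red), 1 array per group. Dashed lines mark 2-fold, 13 genes outside the axes are not drawn, and of the 61 genes AT5G27930 lies beyond 2-fold in the upper right and AT4G29020 in the lower left.

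The 61 genes can be set beside 12 lists with 127 genes. They cover known parts of ABA biology, touch and rapid stress genes, and the leaf, guard cell, vasculature and root markers. Of these, 12 genes were measured here, and none is among the 61. RCA, LHCB4.2, PORB, FMA and SWEET11 are the tissue markers among them. Of the rest, the rule leaves out COR15A, COR15B, COR47, LTI30, AT3G02480 and WRKY53 by name, whatever their values. Among the measured ABA and stress genes STZ alone could be one of the 61, so their absence largely follows from the rule. The receptors, the clade A phosphatases, the kinases and bZIP factors, the genes of ABA synthesis, catabolism and transport, the ABA-responsive transcription factors and the proline and raffinose genes had no measured gene. That means that no probe set paired with such a gene alone passed the filter, which does not show the genes to be silent. Probe sets with no single paired gene numbered 9233, and whether they hold these genes was not tested. Of the 20 ABA and dehydration response genes 5 were measured, of which 3 were at least 2-fold higher with ABA in the vector line and 4 in the overexpressor. Their median differences were 1.52 and 1.78. COR15A, LTI30 and AT3G02480 met the threshold in both lines and are among the 10 genes that the rule left out by name. COR47 had 0.50 and 1.78, and COR15B 0.27 and 0.78. Of the touch and rapid stress genes, WRKY53 had 1.48 and 0.82 and STZ 0.89 and 0.68. By chromosome, 14, 9, 8, 15 and 15 of the 61 lay on chromosomes 1 to 5, against 1884, 1084, 1468, 1054 and 1741 of all genes measured.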

How the data were processed

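Transcript levels were measured in 4 rosette leaf samples on 1-colour ATH1 arrays, 1 array per group. The authors deposited linear-scale intensities, which MAS5 produced per the submitters' processing notes, its version not given in the sources used here. Their trimmed means, with 2% removed at each end, were 99.1 to 99.3, so total RNA per sample cannot be compared. Of 22810 probe sets, 64 were controls, and the annotation paired 13513 with 1 gene and 503 with several. In Python 3.11.15 with pandas 2.3.3, the trimmed means were set to 100. The floor was the pooled 25th percentile of signal and the filter the pooled 40th percentile. Of the 7322 genes left, 7300 matched the RefSeq table of TAIR10.1, used for names and gene order.

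Differences are in log2, computed here from the deposited intensities. No detection call was used, so dim signals may be background, and the number of arrays limits the precision. The code that chooses the genes was tested on simulated data, which checks the code and not the genes. The 61 genes and all lists were chosen with earlier results of these data known, and family lists after the genes were seen. Every gene among the 61 is named. All 4 signals are given for the 20 genes with the largest smaller difference and for those at the floor, sharing a family, or differing by genotype under both sprays. The planned promoter and second-probe-set comparisons were not run: no sequences were used, and no gene among the 61 had another paired probe set. The alternatives were other scalings, floors, filters, fold thresholds and a mean over probe sets.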

Additional observations from a re-analysis of the deposited data

Results flagged for a closer look

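Probe sets that the annotation pairs with no gene or with several were used in no comparison. Of 9233 such probe sets 6246 passed the filter, and 112 of them (1.79 percent) were at least 2-fold higher with ABA in both lines. Among the 7322 genes the share was 0.97 percent, but there the brightest probe set stood for each gene, so the units differ. The difference between the shares was not tested. The largest difference was that of a probe set at the floor under mock and at a log2 signal of 8.60 under ABA in vector plants, with 5.88 and 9.45 in the overexpressor. The next had 6.20 and 9.71 in vector plants and 7.00 and 9.96 in the overexpressor.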

How the results depend on the processing

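No ABA difference of the 61 genes changed sign in either line under the 9 other settings of scaling, floor, filter and probe set choice. Genes chosen for differences of 1 or more had little room to do so. The filter settings could leave a gene out but not change its values, and no gene had a second paired probe set to average. Of the 61, 28 kept both differences at 2-fold under each setting that measured them, and 33 lost it under 1 or more. Quantile normalization called 65 genes, 54 of them among the 61, and median centring 59, 50 of them among the 61. The count was 39 with log2 of signal plus 16, where the added value shrinks dim differences, and 38 with the filter at the 60th percentile, which left 38 of the 61 measured, 20 of them with the larger difference in the vector line. It was 202 at a threshold of 1.5-fold and 15 at 3-fold. With median centring the median differences over the 61 were 1.72 in the vector line and 1.27 in the overexpressor, the difference of the ABA effect -0.41, the genotype medians 0.15 under mock and -0.12 under ABA, and 49 genes had the larger difference in the vector line. With a floor at the 40th percentile the medians were 1.30 and 1.25 and the difference of the ABA effect 0.019. With log2 of signal plus 16 they were 1.18 and 1.20, and the genotype median under mock 0.15. That median was 0.10 with quantile normalization and 0.19 with a floor at 1. Beyond the settings' own construction the cause was not tested. No paired analysis was possible because the groups hold 1 array each and so share fewer than 2 replicate numbers, and no array could be left out without losing a group.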

Other observations

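Genes next to the 61 on the chromosome were looked at as a description. Of 31 measured genes directly adjacent to 27 of the 61, 0 were at least 2-fold higher with ABA in both lines, against 0.97 percent of all genes. With so few genes and so low a share, the 0 says little about neighbours. Their median differences were 0.22 in the vector line and 0.09 in the overexpressor, against -0.09 and 0.06 over all genes. AT2G32140, beside AT2G32150, had 1.67 and 0.56, and GT72B1, beside TBL26, had 1.38 and 0.10.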
